A study of Mus musculus with 12 samples.

Results

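The 18S ribosomal RNA (rRNA) stretch of the mouse rRNA precursor was examined position by position. It comprised the 1877 positions from 4006 to 5882 of a reference sequence of 13400 positions, which is 14.0% of all positions measured. Its edges are the rise and the fall of read depth that open and close the first mature region, placed on the mean profile of all 12 libraries without regard to group. Positions within 18S are given below as nt 1 to 1877, where nt 1 is position 4006. The deposited table carries no annotation, and the name 18S follows the textbook order of the precursor, so the edges can differ by a few nucleotides from an annotated 18S.

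18S rRNA is the RNA of the small (40S) ribosomal subunit, which scans messenger RNA and reads its codons. It is transcribed by RNA polymerase I as part of a long precursor, between the 5′ external transcribed spacer (5′ETS) and the first internal transcribed spacer (ITS1), and is freed by cleavage on both sides. The cut at its 5′ end and the first cuts in ITS1 take place in the nucleus, whereas the last ITS1 nucleotides are removed from the 3′ end by the endonuclease NOB1 in the cytoplasm. Adjacent adenosines near that 3′ end are dimethylated by DIMT1 in the course of maturation. eIF3m is a subunit of eIF3, the initiation factor that binds the 40S subunit.

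RNA was sequenced in 12 libraries, 3 in each of 4 groups, with the rRNA removal step (ZapR) of the Clontech pico kit left out. Hepa1c1c7 cells, a mouse hepatoma line, were kept for 3 days with 10 uM of siRNA against luciferase (control) or Eif3m. Their RNA was a nuclear fraction taken with a purification kit. The animals were FVB/N mice aged 6 to 8 weeks, injected in the tail vein with luciferase or Eif3m siRNA packed in lipid nanoparticles (LNP), at a dose of 0.5 mg/kg. The mouse treatment lasted 13 days, and liver RNA was taken from frozen, ground tissue with phenol and chloroform. Whole liver holds several cell types, and fewer cells of a type and less RNA per cell cannot be told apart in it. The labels number replicates without saying that they came from separate cultures or animals, so the p-values measure the spread between these libraries, which may be technical. The table holds no messenger RNA, so neither the Eif3m knockdown nor markers of liver could be checked here.

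In cells, mean depth over 18S ran from 29609 to 38758 reads per position across controls and from 34820 to 41179 across Eif3m siRNA libraries. In liver the corresponding ranges were 69970 to 118157 and 122723 to 139385. 18S held the highest depth of the whole precursor in each of the 12 libraries, and 0 of its positions were at a depth of 0 in any library. The lowest depth within 18S, over all libraries, was 263 reads. Such depths would leave little counting error if reads were independent, which cannot be checked, because the treatment of duplicates is not given. The number of libraries limited the precision in any case.

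Depth along 18S was very uneven, and the unevenness was nearly the same in all libraries. Relative to each library's own 18S mean, the deepest position on the mean profile was nt 1138 (position 5143), at 4.93 to 5.12 times the mean over the 12 libraries. It was the deepest of 18S in 8 of them, and position 5149 was in the other 4. The 3 deepest bins of 50 nt were nt 1151 to 1200 (mean 4.50 times the 18S mean, 4.40 to 4.59 over libraries), nt 1101 to 1150 (3.29, 3.20 to 3.36) and nt 951 to 1000 (2.71, 2.58 to 2.80). On the mean profile, 374 positions, 19.9% of 18S, supplied 50% of its depth, and 638 positions, 34.0%, lay under 0.5 times the mean. An 80-nt run from nt 1124 to 1203 alone held 18.7% of 18S depth.

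The middle 625 nt took more of the depth than both flanking stretches together. Their share of 18S depth was 59.5% ± 0.17 for the controls and 59.5% ± 0.43 for Eif3m siRNA in cells, and 60.6% ± 0.50 and 61.3% ± 0.52 in liver (SD, n = 3 each). The coefficient of variation along 18S was 95.8% ± 1.1, 95.1% ± 0.63, 95.1% ± 0.61 and 96.1% ± 1.4 (SD, n = 3 each) in the same order. In pairs of libraries of the same group, log2 depths over the 1877 positions correlated with Pearson's r of 0.995 to 1.000. Between control and Eif3m siRNA libraries r was 0.981 to 0.995 in cells and 0.996 to 0.998 in liver. Between control cells and control livers r was 0.956 to 0.967, and between control cells and Eif3m siRNA livers 0.967 to 0.979. It was lower between Eif3m siRNA cells and livers, at 0.903 to 0.939 for control livers and 0.922 to 0.956 for Eif3m siRNA livers. These positions share reads with their neighbours, and r is given as a description.

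**Figure D1:**
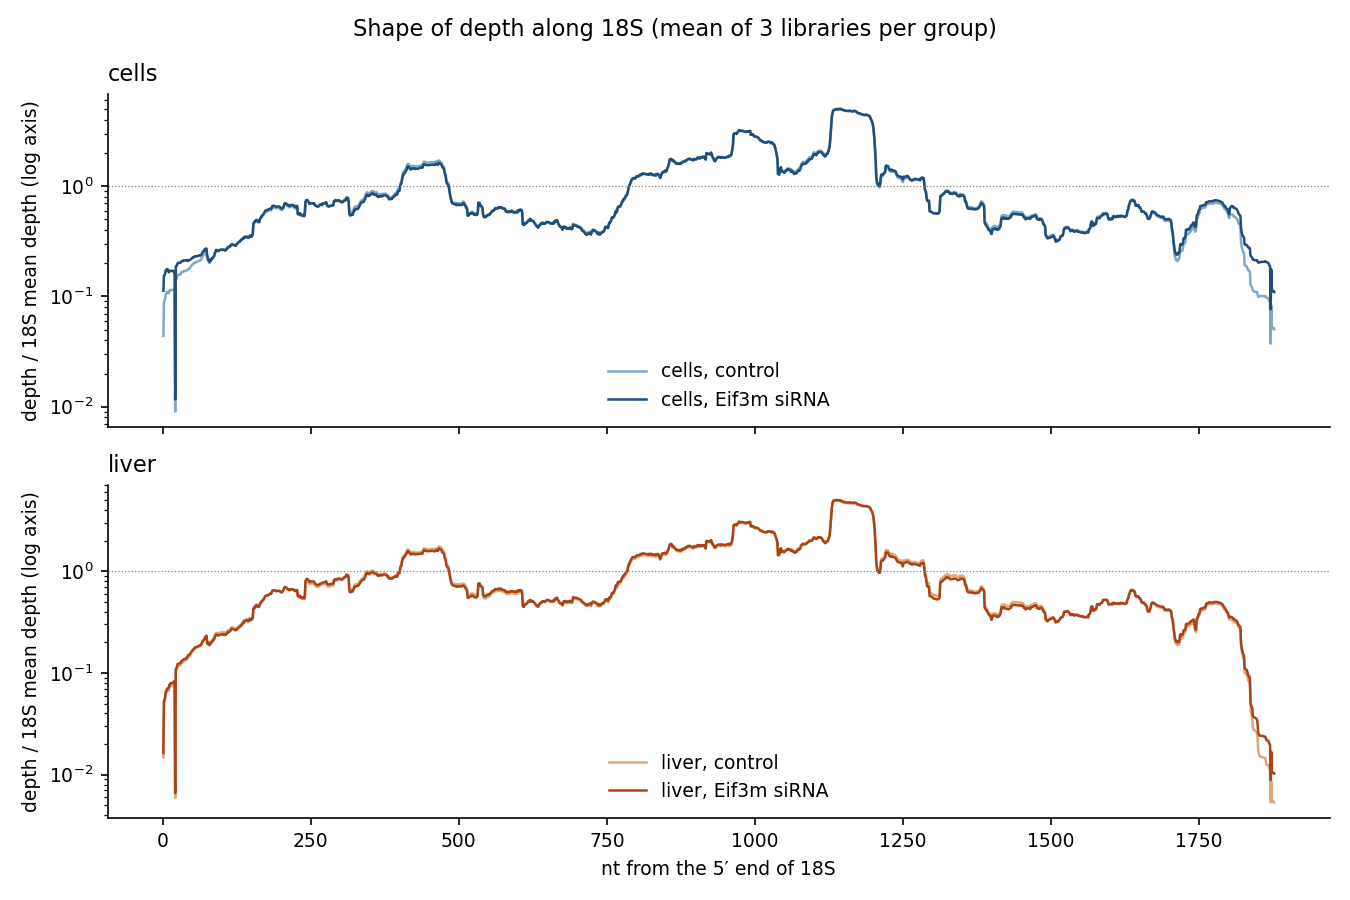
Mean depth at each position of 18S relative to the 18S mean depth of the library (vertical log axis), against nt from the 5′ end of 18S, for cells (upper panel) and liver (lower panel); each line is the mean of 3 libraries. The curves of control and Eif3m siRNA libraries lie on each other over most of the length, with a crest near nt 1138 and single-position drops at nt 21 and nt 1871. They part at both ends in cells and at the 3′ end in liver.

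The shallowest parts lay at the ends. The 3 shallowest bins were nt 1851 to 1877 (mean 0.0747 times the 18S mean), nt 1 to 50 (0.135) and nt 51 to 100 (0.222). The last of the bins by position, nt 1851 to 1877, ran from 0.0114 to 0.215 times the mean over the 12 libraries. At the 5′ end of liver libraries depth rose in steps. In control liver replicate 1 it went from 70 reads at position 4003 to 1127 at position 4004 and, after 1407 at position 4006, to 4684 at position 4007. Control cell replicate 1 had 704, 917, 1128 and 2508 reads at these positions, so that its rise started from precursor depth.

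A drop of a single position stood inside this 5′ slope. Depth at nt 21 (position 4026) was 6.31% to 7.32% of the mean of its neighbours over all 12 libraries, and it was the lowest of 18S on the mean profile, at 0.0083 times the 18S mean. It was the shallowest position of 18S in 10 libraries, and the last position, 5882, was so in the other 2, both control livers. No other position of 18S lay under 50% of both neighbours in every library, against 7 such positions in the whole precursor. The drop was of like size in all 4 groups and was chosen for description after its values were seen. Its cause was not tested, and the base at this position is not given in the sources used here.

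As a share of the whole precursor, 18S was lower in Eif3m siRNA cells and higher in Eif3m siRNA livers than in their controls. In cells it held 39.6%, 40.6% and 38.9% of summed depth in the control libraries and 37.1%, 38.2% and 37.1% in the Eif3m siRNA libraries. The groups did not overlap, with a log2 difference of -0.08 ± 0.02 (SE) and an exact two-sided permutation p of 0.1, the smallest that 3 against 3 allows. In liver it held 37.0%, 36.3% and 37.2% in controls and 41.7%, 41.0% and 42.1% after Eif3m siRNA. The difference was 0.18 ± 0.02 (SE, log2), again without overlap (exact permutation p = 0.1). Means were 39.7% ± 0.84, 37.5% ± 0.65, 36.9% ± 0.45 and 41.6% ± 0.59 (SD, n = 3 each), listed as cells and then liver, with the control first.

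18S was then set against the other mature rRNAs, both of the large subunit. Against 28S, the long rRNA of that subunit, groups separated in liver and overlapped in cells. In liver 18S over 28S was 1.487, 1.443 and 1.498 in controls and 1.81, 1.76 and 1.85 after Eif3m siRNA, and these groups did not overlap (log2 difference 0.29 ± 0.03, SE; exact permutation p = 0.1). In cells it was 1.74, 1.84 and 1.70 in controls and 1.78, 1.78 and 1.74 after Eif3m siRNA, and the groups overlapped (0.01 ± 0.04, SE; exact permutation p = 0.9). 5.8S, the short rRNA paired with 28S, gave another order. In cells 18S over 5.8S was 9.01, 8.97 and 8.67 in controls and 5.89, 6.87 and 6.36 after Eif3m siRNA (log2 difference -0.48 ± 0.07, SE; exact permutation p = 0.1, no overlap). In liver it was 10.7, 12.1 and 10.6 in controls and 12.1, 12.8 and 11.7 after Eif3m siRNA, with overlap (0.13 ± 0.07, SE; exact permutation p = 0.3). Precursor reads lie over mature regions too. The mean depth of 5′ETS and ITS1 together went from 2.20% ± 0.37 to 6.53% ± 1.1 of the 18S mean in the same cells and from 0.0738% ± 0.0081 to 0.112% ± 0.015 in liver (SD, n = 3 each). With this mean spacer depth subtracted from 18S alone, the log2 difference in cells was -0.15 for the share, -0.06 for 18S over 28S and -0.55 for 18S over 5.8S. In liver these values were 0.175, 0.29 and 0.13. Depths of 28S, 5.8S and the whole precursor were left as they were, so this subtraction could only lower the differences. Ratios with spacer depth taken from both sides were not computed, and the part of precursor reads in these ratios was not tested.

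**Figure D2:**
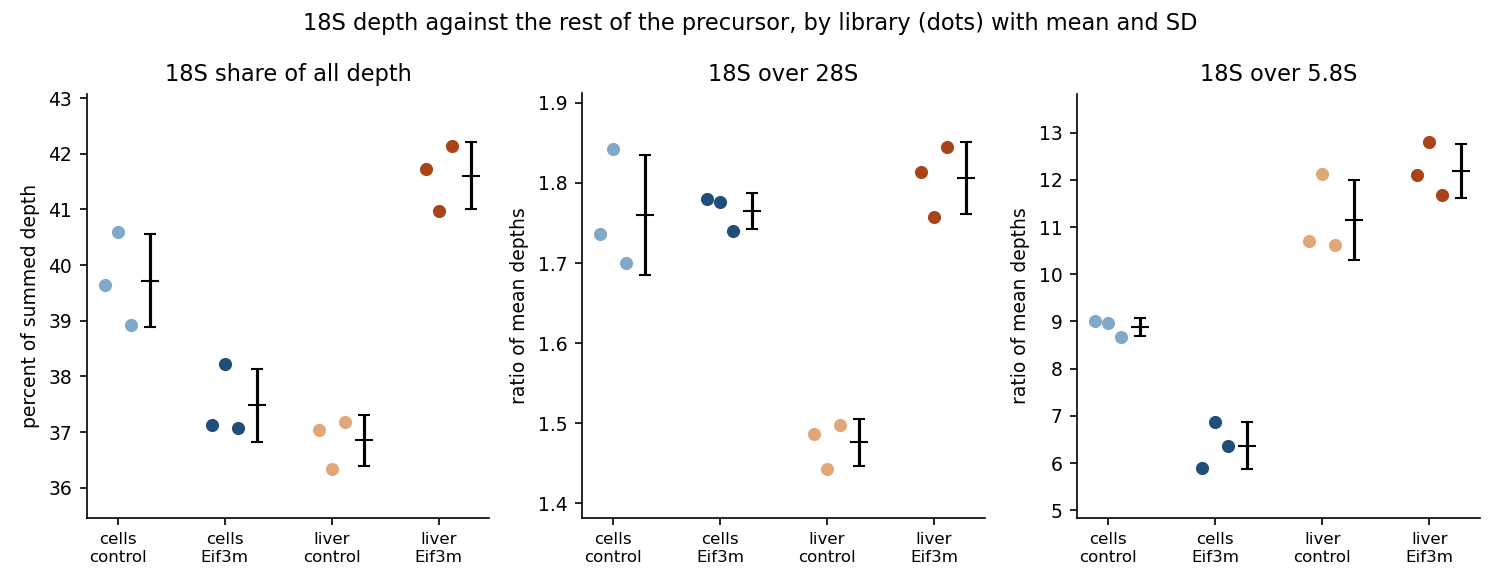
18S share of summed depth in percent (left), ratio of mean 18S to mean 28S depth (middle) and ratio of mean 18S to mean 5.8S depth (right); dots are libraries, and the dash with its bars is the mean with the SD of 3 libraries. Vertical axes do not start at 0. Eif3m siRNA livers, at 41.0% to 42.1%, lie above control livers, at 36.3% to 37.2%, whereas Eif3m siRNA cells, at 37.1% to 38.2%, lie below control cells, at 38.9% to 40.6%.

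Bins of 50 nt, counted from nt 1, were then tested with limma across the whole precursor; 18S makes up 38 of them, the last with 27 nt. A bin is called here when its Benjamini-Hochberg adjusted p over all bins is under 0.05. Neighbouring bins share reads and limma takes much of its error from all bins, so its p-values are smaller than 3 libraries per group warrant. With each library scaled to its summed depth, 38 of 38 18S bins of the liver were called higher and 0 lower, against 51.9% higher and 17.2% lower among all 262 bins. The median of the 38 was 0.19, and that of all bins was also 0.19 (log2). In cells 3 of 38 were called higher and 15 lower, against 51.9% and 15.6% of all 270 bins, with medians of -0.09 for 18S and 0.50 for all bins. The 3 higher ones were at the ends: nt 1 to 50 (0.34 ± 0.09, SE), nt 1801 to 1850 (0.33 ± 0.06) and nt 1851 to 1877 (0.95 ± 0.10). The count of lower bins hung on single libraries: it was 4 without Eif3m siRNA cell replicate 1, 25 without replicate 2, 8 without replicate 3 and 9 without control cell replicate 3.

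These counts follow the scaling. Scaled to the depth of 18S, 5.8S and 28S alone, 38 liver bins were higher and 0 lower, and 4 cell bins were higher and 0 lower. Median-of-ratios scaling sets the middle of all bins to no change; it left 3 liver bins called higher and 2 lower, while in cells 1 was higher and 35 were lower. By single positions on summed depth, all Eif3m siRNA livers lay above all controls at 1718 of 1877 18S positions, or 91.5%, against 49.2% of the whole precursor, and below them at 0, against 18.1%. In cells they lay above at 135, or 7.19%, against 51.8%, and below at 1158, or 61.7%, against 17.7%. The bin at the 3′ end, nt 1851 to 1877, was called higher under these 3 scalings in both systems, with log2 differences of 0.46 to 1.04 in cells and 0.76 to 0.92 in liver.

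To look at the shape of 18S apart from its share, each library was scaled to its own 18S depth. In cells 3 of 38 bins were then called higher after Eif3m siRNA and 0 lower, against 51.9% and 0% of all 270 bins, most of which lie outside 18S. The 3 bins were at the ends: nt 1851 to 1877 (log2 difference 1.04 ± 0.12, SE; limma adjusted p = 6.5e-12), nt 1 to 50 (0.42 ± 0.09; 6.6e-05) and nt 1801 to 1850 (0.41 ± 0.06; 4.9e-08). The other 35 lay between -0.07 and 0.13. The 3 lowest were nt 401 to 450 (-0.07 ± 0.04), nt 1401 to 1450 (-0.07 ± 0.05) and nt 451 to 500 (-0.06 ± 0.04). None of these lowest bins passed the test, with limma adjusted p of 0.088, 0.31 and 0.19. Without control cell replicate 2, and likewise without Eif3m siRNA cell replicate 2, 1 bin was called lower. With spacer depth subtracted from 18S, 4 bins were called lower, among them nt 1401 to 1450 (-0.15; limma adjusted p = 0.018). By single positions, all Eif3m siRNA libraries lay above all controls at 200 of 1877 positions, or 10.7%, against 53.1% of the whole precursor, and below them at 182, or 9.7%, against 1.45%. Of the last 100 positions 76 were higher and of the first 100 likewise 76, and 0 of the middle 625.

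In liver 1 of 38 bins was called higher and 2 lower on this scale, against 30.5% and 35.5% of all 262 bins. The higher bin was again nt 1851 to 1877, at 0.75 ± 0.10 (SE; limma adjusted p = 1.1e-11). Next came nt 1801 to 1850 (0.11 ± 0.05; 0.059) and nt 1701 to 1750 (0.08 ± 0.05; 0.12), which did not pass by limma. The lower bins were nt 1301 to 1350 (-0.10 ± 0.04; limma adjusted p = 0.0087) and nt 1251 to 1300 (-0.08 ± 0.03; 0.034), while nt 1401 to 1450, at -0.09 ± 0.04, did not pass (0.054). Without control liver replicate 1 these 2 lower calls were lost, at -0.07 (limma adjusted p = 0.088) and -0.04 (0.31), and that at nt 1251 to 1300 was also lost without any 1 of the Eif3m siRNA livers (limma adjusted p = 0.056 to 0.14). Without trend in the error, neither passed. The count of higher bins was 3 without control liver replicate 1 and also without Eif3m siRNA liver replicate 2. For the first bin, nt 1 to 50, the value was 0.06 ± 0.06 (limma adjusted p = 0.35). All Eif3m siRNA livers lay above all controls at 351 positions of 18S, or 18.7%, against 32% of the whole precursor, and below them at 456, or 24.3%, against 34.1%. Of the last 100 positions 57 were higher and 0 lower, and of the first 100 only 4 were higher and 17 lower. Unlike in cells, higher positions also lay in the middle 625, with 124 higher and 33 lower.

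**Figure D3:**
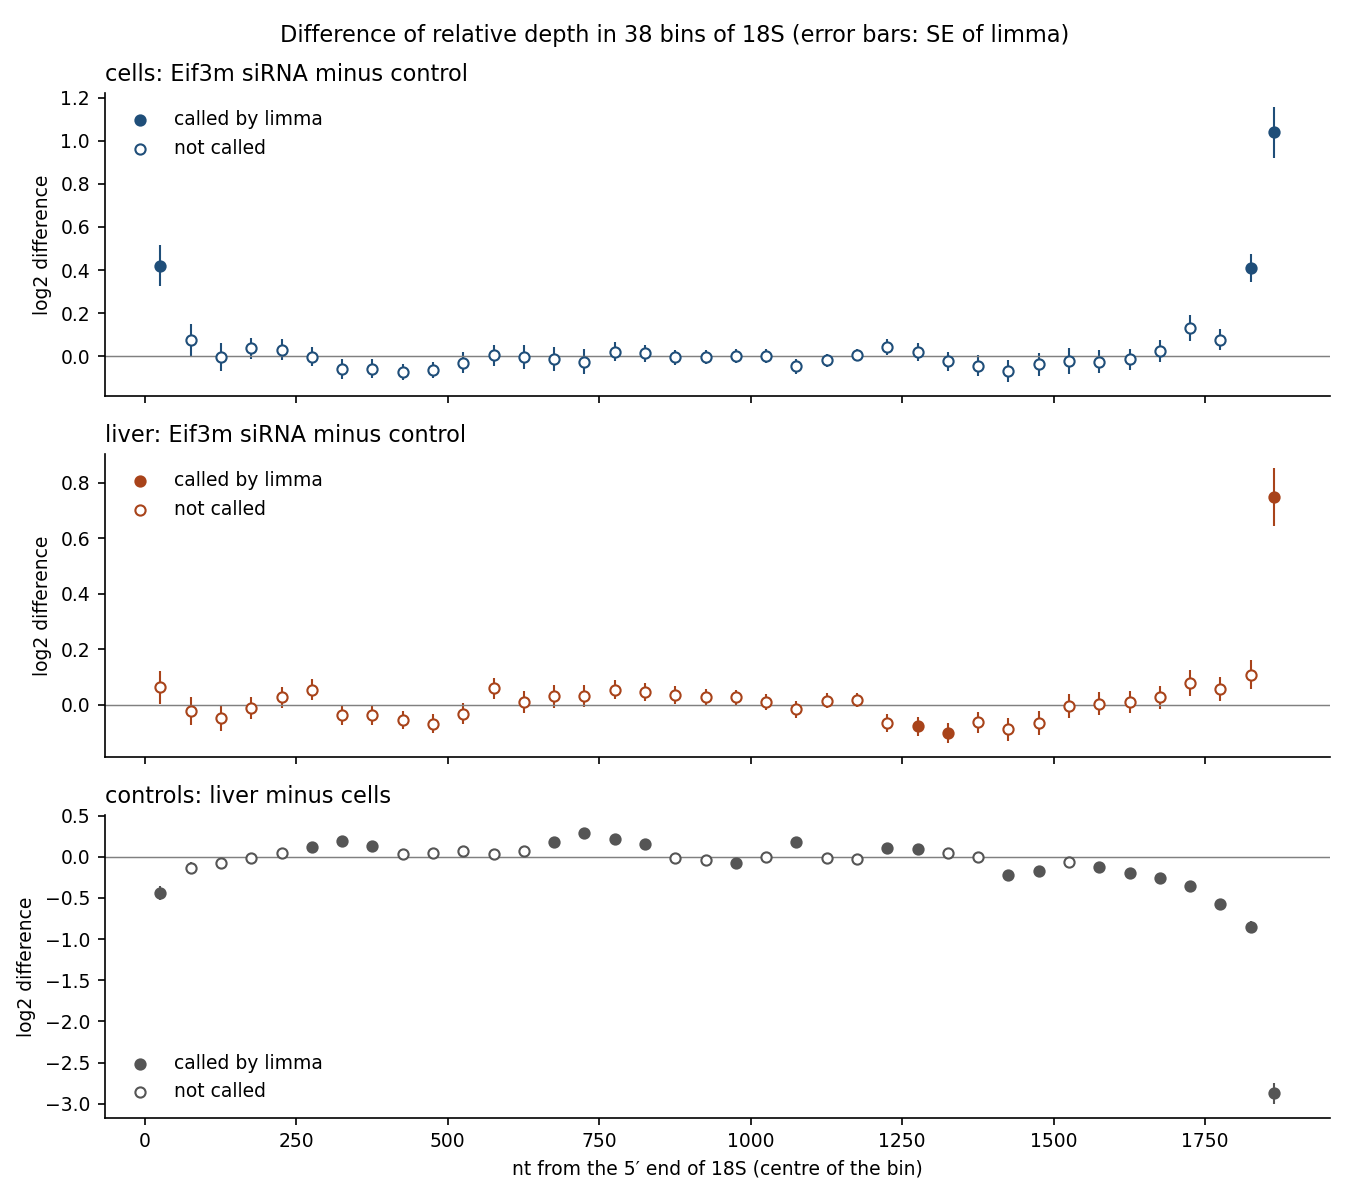
Log2 difference of relative depth in the 38 bins of 18S against the centre of the bin in nt, after Eif3m siRNA in cells (top), after Eif3m siRNA in liver (middle) and between control livers and control cells (bottom); error bars are standard errors of limma and filled symbols are called bins. Vertical scales differ between panels. The largest rises after Eif3m siRNA are at nt 1851 to 1877, 1.04 in cells and 0.75 in liver.

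The last 27 nt of 18S carried the clearest change of shape after Eif3m siRNA in both systems. Their depth was 8.18%, 9.13% and 8.75% of the 18S mean in control cells and 21.5%, 14.9% and 17.8% in Eif3m siRNA cells. In liver it was 1.14%, 1.24% and 1.16% in controls and 2.12%, 1.90% and 1.95% after Eif3m siRNA. Groups did not overlap in either system. The exact permutation p, from a test added after the data were seen, was 0.1 in each, the smallest possible. The call by limma held in each of 12 alternatives in cells, with adjusted p of 3.4e-18 to 0.00094, and in each of 12 in liver, with 1.0e-17 to 0.0060.

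Followed in windows of 10 nt, a description chosen after the data were seen, depth fell towards the end in both systems and further in liver. Control cells were at 70.0% ± 3.3 (SD, n = 3) of the 18S mean at nt 1778 to 1787, at 17.4% ± 0.24 at nt 1828 to 1837, and then at 10.2% ± 0.52, 9.88% ± 0.52 and 6.51% ± 0.39 at nt 1848 to 1857, nt 1858 to 1867 and nt 1868 to 1877. Eif3m siRNA cells stood at 20.6% ± 3.7, 20.5% ± 3.8 and 13.8% ± 2.6 in the last 3 of these windows. Control livers went from 47.5% ± 1.7 at nt 1778 to 1787 to 8.51% ± 0.062 at nt 1828 to 1837, and then to 1.73% ± 0.050, 1.37% ± 0.056 and 0.757% ± 0.057 in the same last windows, where Eif3m siRNA livers stood at 2.62% ± 0.11, 2.29% ± 0.13 and 1.38% ± 0.10. A single-position drop also stood in this stretch: depth at nt 1871 (position 5876) was 41.5% to 44.1% of the mean of its neighbours in cells and 47.3% to 56.4% in liver. The rise after Eif3m siRNA grew towards the end. In cells groups stopped overlapping from nt 1798 to 1807 (1.14-fold), and the ratio reached 1.60-fold at nt 1828 to 1837 and 2.10-fold at nt 1868 to 1877. In liver they stopped overlapping from nt 1818 to 1827 (1.07-fold), and the ratio reached 1.12-fold and 1.83-fold in those windows.

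**Figure D4:**
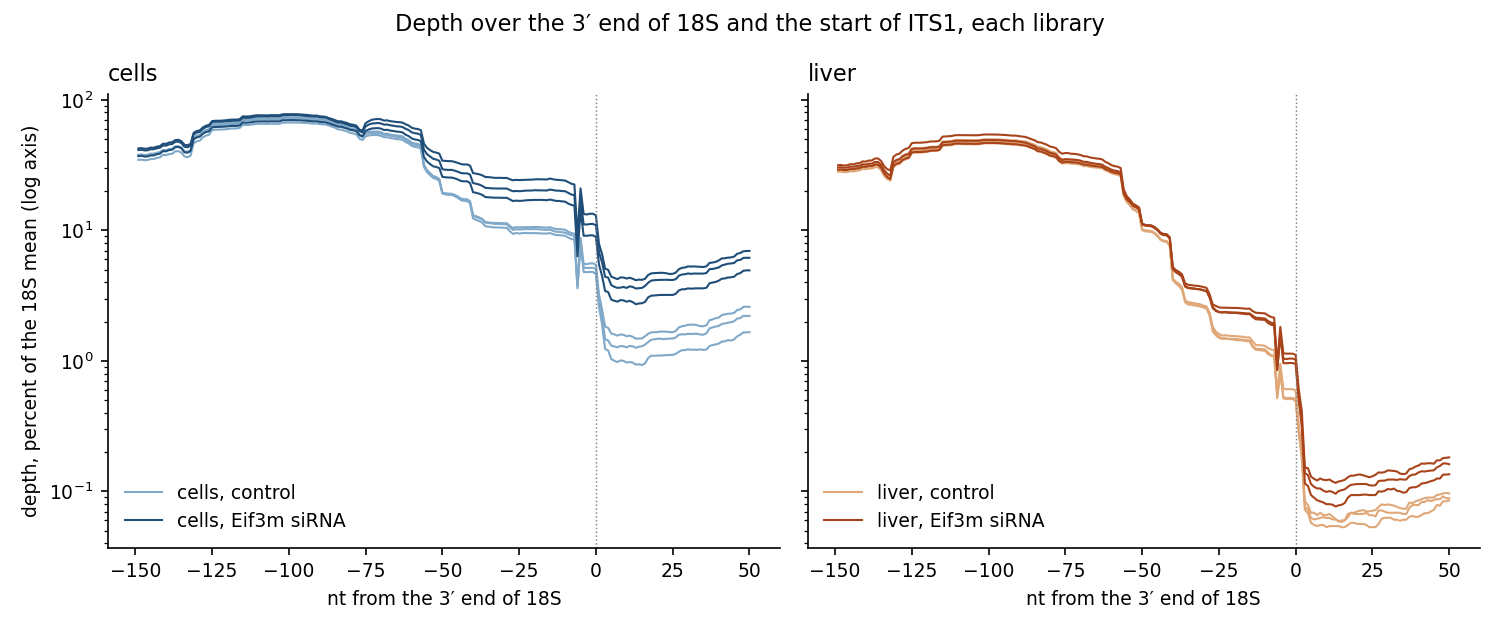
Depth in percent of the library's 18S mean (log axis) over the last 150 nt of 18S and the first 50 nt of ITS1, against nt from the 3′ end of 18S, for each library of the cells (left) and the liver (right). Eif3m siRNA libraries lie above controls over the last nucleotides and beyond the end; the windows nt 1858 to 1867 stood at 9.88% against 20.5% in cells and 1.37% against 2.29% in liver.

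The adjoining ITS1 was shallower than this end and was also deeper after Eif3m siRNA. The 50 nt after 18S stood at 1.25%, 1.91% and 1.64% of the 18S mean in control cells and at 5.25%, 3.60% and 4.63% in Eif3m siRNA cells. In liver they stood at 0.0686%, 0.0801% and 0.0816% in controls and at 0.157%, 0.113% and 0.135% after Eif3m siRNA. Log2 differences were 1.495 ± 0.24 in cells and 0.81 ± 0.16 in liver (SE), with exact permutation p of 0.1 each and no overlap. The depth gained by the last 27 nt was larger than that gained by these ITS1 positions. What the end held above the adjoining ITS1 went from 7.09% ± 0.14 to 13.5% ± 2.5 of the 18S mean in cells and from 1.11% ± 0.051 to 1.85% ± 0.095 in liver (SD, n = 3 each), without overlap in either (exact permutation p = 0.1 each). As a ratio, the last 27 nt were 5.56 ± 0.92 times as deep as the adjoining ITS1 in control cells and 4.02 ± 0.16 times in Eif3m siRNA cells, and 15.5 ± 1.2 and 14.9 ± 1.7 times in liver, where the groups overlapped (SD, n = 3 each). These excesses and ratios, like those at the 5′ end below, were chosen after the data were seen. Their p-values carry no adjustment. When the mean depth of 5′ETS and ITS1 was subtracted from all 18S positions, the bin differed by 0.87 in cells (limma adjusted p = 1.0e-08) and 0.76 in liver (1.6e-11). In liver that mean was 0.0738% and 0.112% of the 18S mean, against 1.18% and 1.99% for the last 27 nt. The subtraction could therefore not have removed the liver difference. It takes the same depth from every position of a library, although depth along the precursor was uneven, so in cells it is only approximate.

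With the adjoining 50 nt of spacer taken as a whole, the 5′ end differed from the 3′ end in this respect. In cells the first 50 nt stood at 13.7%, 13.7% and 14.6% of the 18S mean in controls and at 19.3%, 18.3% and 18.6% after Eif3m siRNA, without overlap (log2 difference 0.42 ± 0.04, SE; exact permutation p = 0.1). The 50 nt of 5′ETS before them stood at 4.16%, 5.93% and 4.83% in controls and at 16.5%, 12.5% and 16.1% after Eif3m siRNA. The 5′ end of 18S was thus 2.88 ± 0.51 times as deep as the spacer before it in control cells and 1.26 ± 0.17 times in Eif3m siRNA cells (SD, n = 3 each). The mean depth of 5′ETS and ITS1 was lower than this adjoining spacer in cells. After subtraction of that mean the first bin differed by 0.12 in cells and its call was lost (limma adjusted p = 0.39). What the first 50 nt held above the adjoining 5′ETS fell from 9.04% ± 1.1 to 3.67% ± 1.8 of the 18S mean in cells (SD, n = 3 each). Those groups did not overlap (exact permutation p = 0.1). The same excess in liver was 10.1% ± 0.31 and 10.5% ± 0.23, with overlap (exact permutation p = 0.2). In liver the first 50 nt were at 10.3%, 10.0% and 10.6% in controls and 10.77%, 10.53% and 10.95% after Eif3m siRNA, and these groups overlapped (0.06 ± 0.03, SE; exact permutation p = 0.2). The liver spacer before them stood at 0.159% ± 0.0072 and 0.239% ± 0.035 (SD, n = 3 each), with no overlap.

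Over both systems, 10 measures of 18S were tested by permuting the siRNA labels of cells and liver separately (400 ways), so no p could fall below 0.005. After Benjamini-Hochberg adjustment over the 10, 4 passed, all of them about the ends: the last 50 nt over the 18S mean (log2 difference 0.63 ± 0.07, SE; exact permutation p = 0.005, adjusted 0.017), the first 50 nt over the mean (0.24 ± 0.02; exact p = 0.01, adjusted 0.025), the 50 nt before 18S (1.09 ± 0.12; exact p = 0.005, adjusted 0.017) and the 50 nt after it (1.15 ± 0.14; exact p = 0.005, adjusted 0.017). With the mean depth of 5′ETS and ITS1 subtracted, the first 50 nt differed by 0.09 (exact adjusted p = 0.025). With the adjoining 5′ETS subtracted instead, they were lower after Eif3m siRNA in cells (log2 difference -1.40), so the sign there depends on the spacer taken. That variant was not tested over both systems. With the outer 25 nt trimmed from each end, so that other positions are the first and last 50 nt, the values were 0.12 and 0.28, and with median depths the last 50 nt differed by 0.83, all still passing. In liver alone the last 50 nt differed by 0.36 ± 0.03 (SE), 0.115 when trimmed and 0.66 with median depths. 18S over 28S did not pass (0.15 ± 0.02; exact p = 0.045, adjusted 0.09), though it did without control cell replicate 2 (0.17; exact adjusted p = 0.02). Neither did 18S over 5.8S pass (-0.18 ± 0.05; exact adjusted p = 0.23), the share of summed depth (0.05 ± 0.01; exact adjusted p = 0.35), the middle stretch over the outer stretches (0.02 ± 0.01; exact adjusted p = 0.35), the 5′-most over the 3′-most stretch (-0.02 ± 0.02; exact adjusted p = 0.35) or the coefficient of variation (0.003 ± 0.008; exact adjusted p = 0.77). The share and both ratios to mature rRNAs moved differently in cells and liver, as given above, so their means are not common changes. For the first 50 nt the log2 difference was 0.42 in cells and 0.06 in liver, where groups overlapped. Its mean over both systems thus came mostly from cells and is not shown to be a common change either.

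The change after Eif3m siRNA was also compared between liver and cells, bin by bin on the shape scale, with limma's interaction term. It called 2 of 38 18S bins lower in liver and 0 higher, against 78.8% lower and 0% higher of all 269 bins. These were nt 1 to 50 and nt 1801 to 1850, with liver minus cells differences of the log2 change of -0.36 ± 0.09 and -0.30 ± 0.09 (SE; limma adjusted p = 0.00086 and 0.0033). The last bin did not pass (-0.29 ± 0.16, SE; limma adjusted p = 0.09), which does not show that the changes there were equal; without Eif3m siRNA cell replicate 2 it passed (-0.42; limma adjusted p = 0.011). With spacer depth subtracted from 18S, the difference at nt 1 to 50 was -0.06 and its call was lost (limma adjusted p = 0.55), that at nt 1801 to 1850 was -0.23 (0.016), and 2 bins were called higher, among them nt 701 to 750 (0.17; 0.018). The count of lower bins was 4 without that library or without control cell replicate 2.

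The shape of 18S also differed between control livers and control cells, which differ in source, RNA fraction, siRNA delivery, dose and time at once, so these cannot be told apart. On the shape scale, 10 of the 38 bins were called higher by limma in liver and 11 lower, against 36.8% and 55.4% of all 269 bins. The lower bins were nt 1 to 50 (-0.44 ± 0.09, SE, and -0.24 with spacer depth subtracted), nt 951 to 1000 (-0.08 ± 0.03), and 9 of the last 10 bins, ending at nt 1751 to 1800 (-0.57 ± 0.05), nt 1801 to 1850 (-0.85 ± 0.07) and nt 1851 to 1877 (-2.88 ± 0.13; 0.136 times the value in cells). The largest rises were at nt 701 to 750 (0.28 ± 0.06), nt 751 to 800 (0.21 ± 0.05) and nt 301 to 350 (0.19 ± 0.05). Groups did not overlap at any bin named here, and the 3′ stretch of 627 nt held 18.2% ± 0.055 of 18S depth in control cells and 16.2% ± 0.38 in control livers (SD, n = 3 each). As whole regions, the log2 difference between control livers and control cells was -0.25 ± 0.04 for 18S over 28S and 0.33 ± 0.06 for 18S over 5.8S (SE), without overlap in either (exact permutation p = 0.1 each). This comparison uses the same control libraries as the knockdown comparisons and is not independent of them.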

How the data were processed

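The authors deposited 1 table of coverage signal: whole-number read depth at 13400 consecutive positions in 12 libraries, not scaled to library size. Per the submitters' processing notes, BWA 0.7.12 and SAMtools 1.3 were used; their options, the reference's name and the treatment of reads with several matches or of duplicates were not given in the sources used here. rRNA genes are repeated, so reads with several matches can bear on depth. Empty cells (85, all in liver columns) were read as 0, and 0 columns were left unused.

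The members and lists were chosen with earlier results of these data known. Edges of mature regions were taken from steps of the mean log2(depth + 1) profile in windows of 20 nt. Bins of 50 nt, counted from the first 18S position, with a mean depth of at least 10 were scaled to summed or to 18S depth, and log2(depth + 1) was fitted with limma 3.58.1 (eBayes with trend) in R 4.3.3; Benjamini-Hochberg adjustment ran over all bins. For the 10 measures, exact permutation tests (two-sided) were run in Python 3.11.15, and the difference of the change between liver and cells with limma's interaction term. The fits were tested on simulated data. Named bins are the 3 deepest and 3 shallowest, the 3 largest rises and falls in each shape comparison, and the first and last.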

Additional observations from a re-analysis of the deposited data

Results flagged for a closer look

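Several 18S results stand out because the change after Eif3m siRNA differed between liver and cells in a test of the difference itself (limma's interaction term on the 10 measures, adjusted over them, or on the bins). Liver minus cells, the log2 change was 0.26 for the 18S share of summed depth, 0.29 for 18S over 28S and 0.61 for 18S over 5.8S, with limma adjusted p of 9.2e-05, 0.00027 and 0.00027. No alternative took spacer depth out of 28S, 5.8S or the summed depth, so precursor reads over them remain in these values. For the ends of 18S relative to its mean the liver minus cells change was -0.36 for the first 50 nt (limma adjusted p = 0.00014) and -0.55 for the last 50 nt (0.0058). The first of these calls was lost with spacer depth subtracted from 18S (-0.0641; limma adjusted p = 0.33) and the other with median depths (-0.34; 0.078). For the adjoining spacer over the 18S mean it was -1.03 for the 50 nt before 18S (limma adjusted p = 0.002) and -0.69 for the 50 nt after it (0.043). The call for the 50 nt after 18S was lost in 8 of 12 fits without 1 library, and with median depths.

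Among the bins on the shape scale, nt 1 to 50 stood at -0.36 and nt 1801 to 1850 at -0.30 (limma adjusted p = 0.00086 and 0.0033). With spacer depth subtracted they stood at -0.06 (limma adjusted p = 0.55, call lost) and -0.23 (0.016). The largest positive values were 0.06 at nt 701 to 750, nt 251 to 300 and nt 551 to 600, and none passed as deposited, while nt 701 to 750 did after that subtraction (0.17; limma adjusted p = 0.018). Liver and cells differ in RNA fraction, delivery, dose and time together, and these cannot be told apart.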

How the results depend on the processing

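The measures that turned or crossed the threshold under an alternative, and the counts of called bins that moved by more than 1.5 times, are given here; the other measures and counts recomputed did neither. Counts of called 18S bins are in percent of the 18S bins. On the shape scale, cells had 10.5% lower after subtraction of spacer depth (0 to 2.63% when 1 library was left out). Liver had 5.26% higher with bins of 100 nt and with the replicate block (2.63 to 7.89% when 1 library was left out), and its lower calls were 10.5% with bins of 100 nt or with median depth, 0% without trend and 15.8% with the block (0 to 7.89% when 1 library was left out). The difference between systems had 5.26% higher after subtraction and 10.5% lower with bins of 100 nt and with the block (5.26 to 10.5% when 1 library was left out).

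In summed depth, median-of-ratios scaling left cells with 2.63% higher and 92.1% lower; they had 0% lower when scaled to mature depth and 2.63% lower without trend. Leaving out a library moved the lower calls over 10.5 to 65.8%: 10.5% without Eif3m siRNA cell replicate 1, 65.8% without replicate 2, 21.1% without replicate 3 and 23.7% without control cell replicate 3. Under median-of-ratios scaling, liver had 7.89% called higher and 5.26% called lower. There, the first bin of cells turned to -0.16.

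For the measures over both systems, 18S over 28S passed with median depths (0.15, exact permutation adjusted p = 0.04) and without control cell replicate 2 (0.14 to 0.17 when 1 library was left out). After subtraction of spacer depth the coefficient of variation (0.0358, exact adjusted p = 0.033) and the middle over the outer stretches (0.05, exact adjusted p = 0.03) passed. With signs exchanged only within same-numbered pairs (the replicate block), the 4 that passed were lost, at exact adjusted p = 0.078 each, with the same values (1.15 after 18S, 1.09 before it, 0.24 for the first and 0.63 for the last 50 nt). These are at the smallest p that this test of 6 pairs allows. The labels do not say whether same-numbered libraries were paired. Deviations of such libraries from group means over 38 bins correlated at -0.42 to -0.14 in cells and 0.0089 to 0.49 in liver. In cells 0 of 6 libraries correlated best with their own number, and in liver 3 of 6. With 3 libraries per group these values cannot settle whether there was pairing. Values near 0 changed sign: the 5′-most over the 3′-most stretch with median depths (0.0301 over both systems, 0.0114 in cells); 18S over 28S in cells after subtraction (-0.0603); the coefficient of variation in cells (0.06) and in the difference (-0.0392) after subtraction; and the middle stretch in cells trimmed by 25 nt (0.00076) or after subtraction (0.0697) and in the difference (-0.0299). When 1 library was left out, 18S over 28S in cells ran from -0.0194 to 0.0389, the middle stretch in cells from -0.0166 to 0.00895, the 5′-most over the 3′-most stretch in liver from -0.00559 to 0.0188, and the coefficient of variation over both systems from -0.00124 to 0.00857.

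Of the differences between liver and cells by limma, that of the 50 nt after 18S was lost with median depth (-0.68, adjusted p = 0.055) and in 8 of 12 fits without 1 library (-0.718 to -0.519, within -0.84 to -0.519 over all 12), that of the first 50 nt after subtraction (-0.0641, adjusted p = 0.33) and that of the last 50 nt with median depth (-0.34, adjusted p = 0.078). The 5′-most over the 3′-most stretch ran from 0.0431 to 0.0837 and passed without Eif3m siRNA cell replicate 2. Causes of these changes were not tested.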
